A study of Homo sapiens with 6 samples.

Results

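Receptor tyrosine kinases are cell-surface receptors that bind a growth factor or another ligand outside the cell and phosphorylate tyrosines on themselves and on other proteins inside it. The 10 genes described here, EGFR, ERBB2, PDGFRA, PDGFRB, MET, FGFR1, AXL, IGF1R, EPHA2 and DDR1, encode members of this family that are studied as drivers or drug targets in glioblastoma. They were chosen by name as 10 of the 42307 genes in the deposited tables, and each symbol had 1 row. The rule uses names and no measured value, but the set was proposed with earlier results of these data known. All 10 passed the filter on low counts.

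Their levels come from RNA sequencing of U251 cells, a long-established glioblastoma line of human origin with the genotype label WT. The controls had received a negative control plasmid (NC, 3 libraries) and the other cells a STING overexpression plasmid (STING-OE, 3 libraries), both at 1 ug per well, and were sampled on day 3. STING relays the signal of cGAS, a sensor of DNA in the cytosol. Both groups are the same line grown and transfected in medium with fetal bovine serum, and neither the transfected share of cells nor the clonal state of the line is given in the sources used here.

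In most receptors of this family, ligand binding brings receptor chains together, and the phosphorylated tails recruit adaptors such as GRB2 and SHC1. These start the RAS-ERK and PI3K-AKT cascades, which drive growth, survival and movement. Ubiquitin ligases, phosphatases and transcriptionally induced inhibitors such as ERRFI1 and the Sprouty proteins switch the receptors off again. EGFR and PDGFRA are known for amplification in glioblastoma tumours, and MET, AXL and IGF1R for roles in invasion and in resistance to inhibitors of other receptors.

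Depth was similar in all libraries, at 71498790 to 76566375 counts, and 3 counts corresponded to 0.0388 to 0.0424 CPM (counts scaled to the library size with TMM factors), a floor that covers counting error only. In each library more genes had a count of 4 than the mean number with 3 or 5, by 1.97 to 2.29 times, so very low counts may not be independent reads. STING1, the gene on the plasmid, rose 1.51-fold, from 34.8 ± 3.15 CPM in the controls to 52.8 ± 4.79 CPM (SD, n = 3), at an edgeR adjusted p of 0.00221. Nothing in the labels states whether replicates are separate cultures, so a p-value reflects the spread among these 6 libraries, and that spread may be technical. Of the astrocyte and glioma marker genes, 5 of 6 were in the tables. Their summed level was 3080 to 3170 CPM in the controls and 2840 to 2960 CPM with the STING plasmid. GFAP was the 1 that passed the test (log2 fold change −0.86, edgeR adjusted p = 0.033). S100B, SOX2, NES and VIM also had negative log2 fold changes (−1.505, −0.155, −0.156 and −0.086) and did not pass. The summed levels of the oligodendrocyte, immune, endothelial and epithelial lists lay at or under 10.4 CPM in every library, and those of the neuron and fibroblast lists between 16.9 and 55.2 CPM. No gene of these 6 other marker lists passed the test, which 1.49% of all tested genes passed.

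To show the genomic setting of the gene that changed beside that of the 3 most abundant members, the bases before the RefSeq start site are printed for DDR1, AXL, EPHA2 and MET (GRCh38.p14, read 5′ to 3′ on the gene's strand). Each run starts 250 bases before the start site and ends at the start or at the first base of an annotated GENCODE exon. Capitals mark matches to GGGCGG, the GC box, and to CCAAT, on either strand.
DDR1, chr6:30880720-30880779, plus strand: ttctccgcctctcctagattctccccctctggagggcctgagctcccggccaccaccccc
AXL, chr19:41218973-41219202, plus strand: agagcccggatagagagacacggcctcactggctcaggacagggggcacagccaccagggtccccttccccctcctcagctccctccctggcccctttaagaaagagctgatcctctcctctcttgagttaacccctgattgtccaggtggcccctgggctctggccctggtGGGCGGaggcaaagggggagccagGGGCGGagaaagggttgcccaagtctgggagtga
EPHA2, chr1:16156088-16156319, minus strand: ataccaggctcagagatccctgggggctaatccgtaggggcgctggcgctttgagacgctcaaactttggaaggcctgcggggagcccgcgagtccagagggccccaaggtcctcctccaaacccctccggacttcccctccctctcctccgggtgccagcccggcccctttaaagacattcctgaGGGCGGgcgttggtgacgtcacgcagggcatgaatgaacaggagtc
MET, chr7:116671946-116672195, plus strand: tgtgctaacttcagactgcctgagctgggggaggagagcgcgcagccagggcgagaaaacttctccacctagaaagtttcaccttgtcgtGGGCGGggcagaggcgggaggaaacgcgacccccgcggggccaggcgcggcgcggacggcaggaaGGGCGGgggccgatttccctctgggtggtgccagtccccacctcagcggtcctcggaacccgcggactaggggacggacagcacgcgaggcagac

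The 250 bases before the DDR1 start were 60.4% G or C with 6 CpG, and held 0 GC boxes and 1 CCAAT, which lies outside the printed run. The same window held 2 GC boxes in AXL, 1 in EPHA2 and 2 in MET, and 4, 15 and 24 CpG. Of 35116 RefSeq promoters 42.6% held a GC box and 32.0% a CCAAT in these 250 bases, searched on both strands. The window was read for 9 of the 10 members, and its share of G and C ran from 46.8% in PDGFRA to 81.2% in IGF1R. The DDR1 window lies inside the deposited gene model, which starts upstream at position 30876421, so transcripts that start further upstream are not covered by it. TATAAA was found in 0 of the 9 windows, against 10.7% of all promoters, and TGANTCA in those of ERBB2 and PDGFRA, against 6.57% of all.

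The U251 cells expressed these receptors at levels that spanned more than 2 orders of magnitude, and 3 of them dominated. Levels between genes are given in the deposited FPKM, which are counts scaled to gene length and library size. In the controls AXL, a receptor for GAS6, stood at 114 ± 3.57 FPKM (SD, n = 3), above 99.4% of all genes with a value above 0. EPHA2, an ephrin-A receptor, followed at 87.1 ± 1.69 FPKM, and MET, the receptor for hepatocyte growth factor, at 64.0 ± 0.73 FPKM. EGFR came next at 18.0 ± 0.519 FPKM. DDR1 at 10.8 ± 0.414 and IGF1R at 10.7 ± 0.43 FPKM overlapped in their ranges over libraries. FGFR1 was at 5.78 ± 0.246, ERBB2 at 4.80 ± 0.348 and PDGFRA at 3.92 ± 0.497 FPKM. PDGFRB was lowest, at 0.44 ± 0.0794 FPKM, and 9 of the 10 members lay above 1 FPKM.

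**Figure D1:**
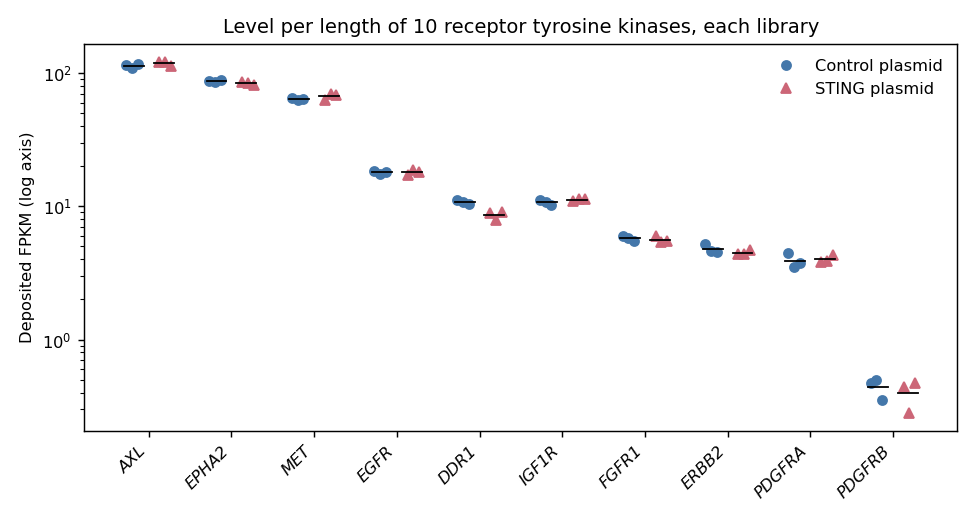
Deposited FPKM (log axis) of the 10 receptors in each of 3 control-plasmid libraries (blue circles) and 3 STING-plasmid libraries (red triangles), with group means as black lines. AXL, EPHA2 and MET sit above 60 FPKM in every library, and PDGFRB under 0.6.

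With the STING plasmid the order of the leading members was the same, at 119 ± 4.74 FPKM for AXL, 83.8 ± 2.68 for EPHA2, 67.0 ± 3.76 for MET and 18.0 ± 0.87 for EGFR. IGF1R, at 11.2 ± 0.253 FPKM, then lay above DDR1, at 8.61 ± 0.664 FPKM, in every library. FGFR1 was at 5.63 ± 0.344, ERBB2 at 4.50 ± 0.178, PDGFRA at 4.03 ± 0.271 and PDGFRB at 0.397 ± 0.102 FPKM. The ranges of ERBB2 and PDGFRA came close but did not meet in either group. The lowest ERBB2 and highest PDGFRA values were 4.37 and 4.34 FPKM with the STING plasmid, and 4.55 and 4.47 FPKM in the controls.

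The spread between replicates differed between the members. The coefficient of variation of the CPM in the controls ran from 0.855% for MET to 18.2% for PDGFRB, and in the STING libraries from 1.69% for IGF1R to 25.7% for PDGFRB. PDGFRB was also the member with the fewest counts, 169 to 278 per library, so a change of the size seen in DDR1 lies within its interval.

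The lengths behind these values matter for the order. The length implied by the deposited FPKM was 4479 bases for EPHA2 and 5554 for AXL, but 15874 for FGFR1 and 15083 for IGF1R. In every member it was longer than the longest GENCODE transcript, by unlike amounts. For EPHA2 that transcript has 3964 bases, for AXL 4737, for IGF1R 12235 and for FGFR1 6216. For DDR1 the implied length was 9878 bases and the longest transcript 4148. Per kilobase of that longest transcript, a choice made after seeing the data, AXL, EPHA2 and MET again led in the controls. They were at 135, 99.2 and 76.1 CPM per kilobase. In the controls DDR1 then stood at 25.9 and EGFR at 25.0, and FGFR1 at 14.9 and IGF1R at 13.3. Each of these pairs changed places there. In the STING libraries FGFR1, at 14.3, was also above IGF1R, at 13.7, but EGFR, at 24.7, stayed above DDR1, at 20.4. DDR1 was then above IGF1R in both groups, at 20.4 against 13.7 in the STING libraries, the reverse of the FPKM order there. The order of EGFR, DDR1, IGF1R and FGFR1 therefore rests on the gene length used.

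Among all receptor tyrosine kinases the 10 members held most of the signal. Of 58 genes of the family 57 were in the tables, 23 were at 1 FPKM or more in the controls, and 2 were at or under 3 counts in every library. The 10 members took 78.4% of the FPKM summed over the family in the controls, and AXL, EPHA2 and MET alone 65.1%. AXL, EPHA2 and MET ranked 1 to 3 of the family and EGFR ranked 5. The ephrin receptor EPHA3, at 19.3 ± 0.994 FPKM, ranked between MET and EGFR. PTK7, a pseudokinase of Wnt signalling, was at 11.2 ± 0.446 FPKM and ranked just above DDR1. These places also rest on the gene length. Per kilobase of the longest transcript, EPHA3 in the controls was at 23.9 and PTK7 at 20.8 CPM per kilobase, both below EGFR and DDR1.

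**Figure D2:**
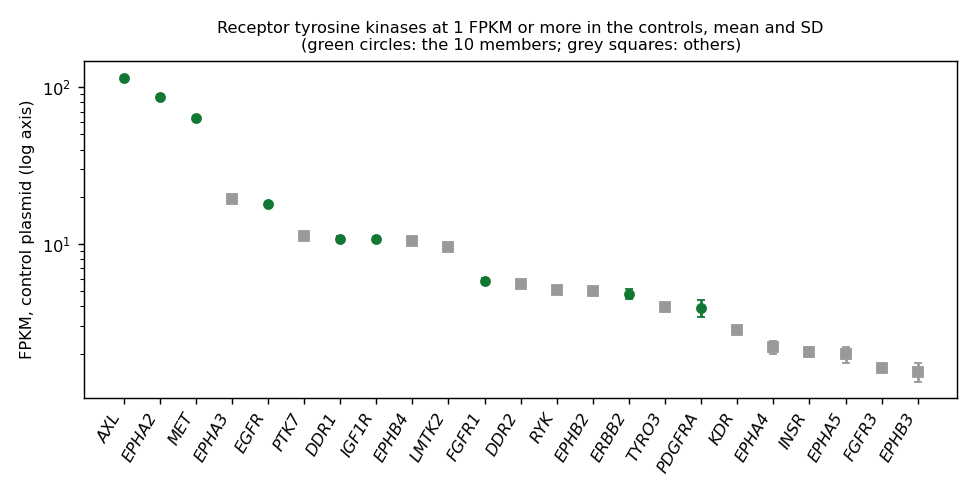
Mean FPKM with SD (n = 3, log axis) in the control libraries for the 23 receptor tyrosine kinases at 1 FPKM or more, with the 10 listed members as green circles and the others as grey squares. AXL, EPHA2 and MET lie apart from the rest, and 9 of the 10 members appear because PDGFRB is under 1 FPKM.

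The comparison of the plasmids asked whether the STING plasmid changed these receptors. DDR1, a receptor that is activated by collagen, fell to 0.788 of the control level, and the other 9 members did not pass the test. Thus 1 of 10 members was lower and 0 were higher, against 0.89% of the 21679 tested genes lower, 0.604% higher and 1.49% in both directions. The median log2 fold change was −0.04 over the members and 0.00103 over all tested genes, and 6 of the 10 estimates were negative. At an unadjusted edgeR p under 0.05 the count was also 1 member, against 14.4% of all tested genes. DESeq2 called 1 member (7.41% of its genes), limma-voom 1 (0.632%) and limma on the FPKM 0 (0.0415%). DDR1 was also the 1 member whose groups did not overlap, with all STING libraries lower, as in 9.73% of tested genes (10.1% had all of them higher, 19.9% either).

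DDR1 (ENSG00000204580) lies on the plus strand of chromosome 6 between 30876421 and 30900154 (GRCh38). It was counted 8056, 7698 and 7819 times in control libraries 1, 2 and 3, and 6765, 5891 and 6792 times in STING libraries 1, 2 and 3. In CPM these were 110, 109 and 104 against 88.1, 76.2 and 89.4. Every STING library was below every control library, and STING library 2 was the lowest. Means were 107 ± 3.28 CPM in the controls and 84.6 ± 7.27 CPM in the STING libraries (SD, n = 3). This is a log2 fold change of −0.34 ± 0.059 (SE), with a 95% interval of −0.47 to −0.22 and an edgeR adjusted p of 0.00996. By exact permutation of the CPM (two-sided), p was 0.1, and 3 against 3 libraries cannot go lower.

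DDR1 lost its call without control library 1 or 2. The edgeR adjusted p was then 0.0773 or 0.0691, at log2 fold changes of −0.328 and −0.334, and 0 members were called. Over all genes, each of these fits called 60, against 324 with all libraries. In bulk RNA, fewer cells that express a gene and less RNA per cell cannot be told apart. DDR1 had the highest GC content of the members, 61.6% in its longest transcript, and the genes that fell had a median of 56.3% against 47.9% over all tested genes. With offsets for GC content and length its log2 fold change was −0.274 and its edgeR adjusted p was 0.0121.

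Of the 6 nearest tested genes of at least 1 CPM, 3 on each side, 0 passed in edgeR. They were chosen by position after the values were seen. The 3 before DDR1 lie 131873 to 150995 bases from it, and the 3 after it 8053 to 14051 bases. TUBB, which encodes a beta-tubulin, and FLOT1, which encodes a lipid-raft scaffold, lie on the side before DDR1 and had log2 fold changes of −0.14 and −0.11 (edgeR adjusted p of 0.142 and 0.274). IER3, also on that side, was at −0.09 (0.839). On the other side GTF2H4, a subunit of the transcription factor TFIIH, was at −0.22 and VARS2, the mitochondrial valine tRNA ligase, at −0.12 (0.878 and 0.944), and the model AL669830 was at 0.22 (0.835). The groups did not overlap for TUBB and FLOT1, with all STING libraries lower, and overlapped for the other 4. All STING libraries were lower in 9.73% of all tested genes.

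Of genes without clone-based or LINC names, PLXND1, FDFT1 and COL6A2 had the profiles over the 6 libraries most like that of DDR1. Likeness was measured as the largest difference in any library between mean-centred log2 CPM profiles, over 10302 genes of at least 10 CPM. It was 0.0287 for PLXND1, a semaphorin receptor, 0.0295 for FDFT1, the squalene synthase, and 0.0394 for COL6A2, a collagen VI chain. All 3 were lower too, with log2 fold changes of −0.34, −0.37 and −0.35. Since the change between the plasmids is the main part of the DDR1 profile, this selection favours genes that fell by a like amount.

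**Figure D3:**
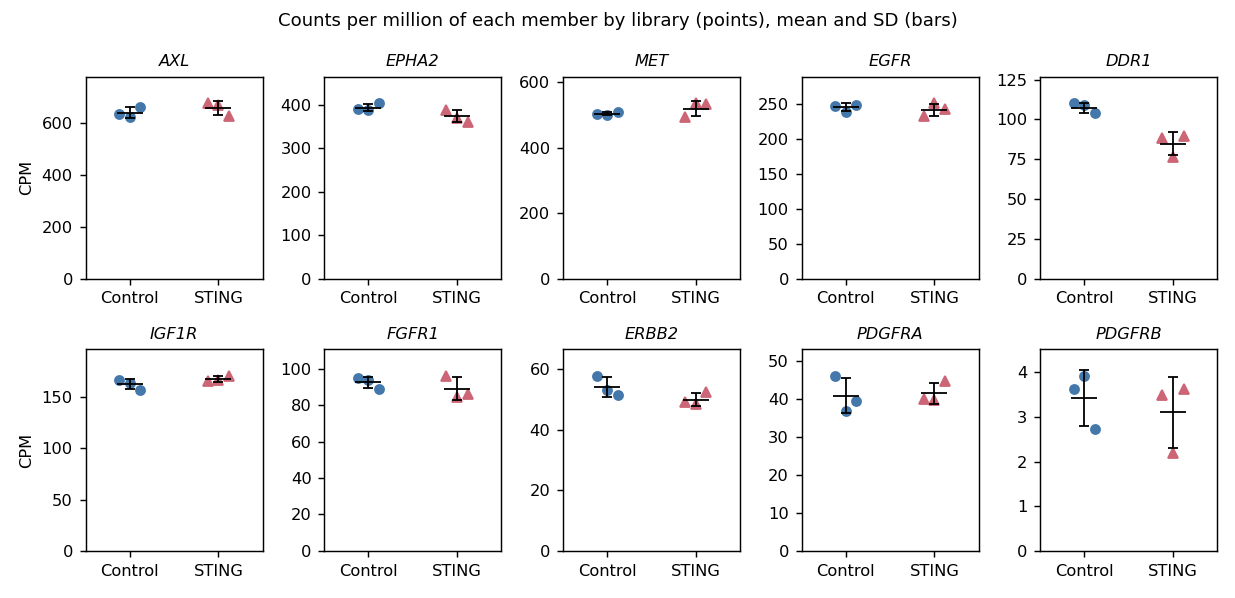
CPM of each member in the 3 control (blue circles) and 3 STING (red triangles) libraries, each panel with its own axis from 0, with mean and SD (n = 3) as black bars. DDR1 is the panel in which no triangle reaches the circles.

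The 2 members of the EGFR family did not pass the test. EGFR (ENSG00000146648, chromosome 7, 55019017 to 55211628, plus strand), the receptor for EGF and TGF-alpha, was at 18.4, 17.4 and 18.2 FPKM in the control libraries and 17.1, 18.9 and 18.0 FPKM in the STING libraries. STING libraries 1 and 2 were the lowest and the highest of all, so the groups overlapped. The means in CPM were 246 ± 5.47 and 242 ± 8.86 (SD, n = 3). The log2 fold change was −0.02, with a 95% interval of −0.11 to 0.07 and an edgeR adjusted p of 0.908, and its sign turned with scaling to total counts (0.0106). ERBB2 (ENSG00000141736, chromosome 17, 39687914 to 39730426, plus strand), a partner receptor without a known ligand of its own, was at 57.8, 53.0 and 51.6 CPM against 49.1, 48.4 and 52.3 CPM. The highest STING library lay above the lowest control library. Its log2 fold change was −0.12, with an interval of −0.24 to 0.01 and an edgeR adjusted p of 0.39.

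The PDGF receptors, which bind platelet-derived growth factors, were the least abundant members by FPKM, and in the controls also the 2 with the largest coefficients of variation of the CPM. PDGFRA (ENSG00000134853, chromosome 4, 54229280 to 54281977, plus strand) was at 46.0, 36.8 and 39.5 CPM in the controls and 39.9, 39.7 and 44.6 CPM with the STING plasmid. Control library 1 was the highest of all and control library 2 the lowest, so the control range enclosed the STING libraries. The log2 fold change was 0.02, with an interval of −0.15 to 0.19 and an edgeR adjusted p of 0.953, and it turned negative, to −0.0161, with offsets for GC content and length. PDGFRB (ENSG00000113721, chromosome 5, 150113839 to 150155860, minus strand) was counted 267, 278 and 206 times in the controls and 268, 169 and 276 times with the STING plasmid. The lowest STING library, number 2, decided its estimate of −0.14 (interval −0.60 to 0.31, edgeR adjusted p = 0.85), which was 0.055 without it. For PDGFRB the interval includes a fall to 0.661 and a rise to 1.24 of the control level.

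The 3 leading receptors were measured closely and did not pass. AXL (ENSG00000167601, chromosome 19, 41219223 to 41261766, plus strand) was at 633, 621 and 661 CPM in the controls and 674, 666 and 627 CPM with the STING plasmid, so the groups overlapped. Its fold was 1.03, with a 95% interval of 0.963 to 1.10 and an edgeR adjusted p of 0.785. MET (ENSG00000105976, chromosome 7, 116672196 to 116798377, plus strand) was at 503, 502 and 510 CPM against 493, 536 and 533 CPM. STING library 1 was below all control libraries and STING libraries 2 and 3 were above them. The fold of MET was 1.03, with an interval of 0.966 to 1.10 and an edgeR adjusted p of 0.747. EPHA2 (ENSG00000142627, chromosome 1, 16124337 to 16156069, minus strand) was at 389, 388 and 403 CPM in the controls and 388, 370 and 361 CPM with the STING plasmid. STING library 1 reached the level of control library 2, and the other two STING libraries were lower. The fold of EPHA2 was 0.948, with an interval of 0.889 to 1.01 and an edgeR adjusted p of 0.463.

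IGF1R and FGFR1 did not pass either. IGF1R (ENSG00000140443, chromosome 15, 98648539 to 98964530, plus strand), the receptor for insulin-like growth factors, was at 167, 164 and 157 CPM in the controls and 166, 167 and 171 CPM with the STING plasmid. Its STING libraries lay at the upper end of the control range or above it, with a log2 fold change of 0.05 (interval −0.05 to 0.14, edgeR adjusted p = 0.724). FGFR1 (ENSG00000077782, chromosome 8, 38400215 to 38468834, minus strand), a fibroblast growth factor receptor, was at 94.9, 93.5 and 88.9 CPM against 96.1, 84.2 and 86.3 CPM. STING library 1 was the highest of all and the other two were the lowest, with a log2 fold change of −0.06 (interval −0.17 to 0.06, edgeR adjusted p = 0.734). Whether the change of DDR1 differed from that of the other members was not tested.

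**Figure D4:**
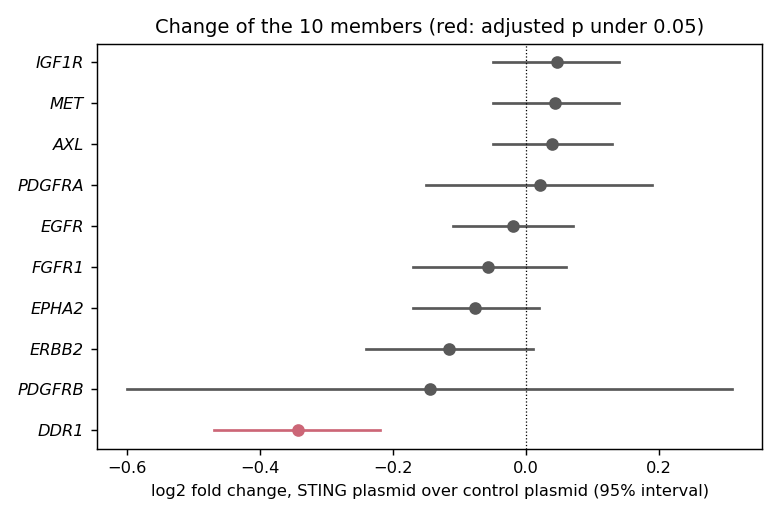
Log2 fold change of each member, STING plasmid over control plasmid, with its 95% interval from the edgeR fit. The interval of DDR1, drawn in red, runs from −0.47 to −0.22, and the intervals of the other 9 members include 0.

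Reads could be shared with overlapping genes, since the strand setting of the counting is not given in the sources used here. DDR1, PDGFRA, PDGFRB and MET overlapped no other tested gene model. ERBB2 overlaps MIEN1 on the opposite strand, which had 52.7% of its CPM in the controls, and PGAP3, with 10.9%. Summed with both, ERBB2 was at 90.4, 88.4 and 86.9 CPM in the controls and 85.1, 79.3 and 82.5 CPM with the STING plasmid, and the groups no longer overlapped. The sum of EPHA2 and its 1 overlapping tested model, at 394 ± 8.24 and 373 ± 13.8 CPM, also lay apart, but narrowly. Its lowest control library was at 389 CPM and its highest STING library at 388 CPM. Of all tested genes, taken singly, 19.9% had groups that did not overlap. FGFR1 overlaps LETM2, at 4.55% of its level. Each model over EGFR, AXL, IGF1R and EPHA2 was at most 0.196% of the level of the receptor.

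Elsewhere in the family, 1 of 35 other tested receptor tyrosine kinases rose, 1 fell and 33 did not pass. Of all tested genes 0.604% rose and 0.89% fell. PTK7, on chromosome 6 from 43076307 to 43161715, fell to 92.4 ± 4.26 CPM from 110 ± 3.37 in the controls (SD, n = 3), which is 0.839 of the control level with an edgeR adjusted p of 0.02. EPHA5, an ephrin receptor of the nervous system (chromosome 4, 65319563 to 65670495), rose from 21.3 ± 2.46 to 27.5 ± 1.38 CPM, 1.29-fold with an edgeR adjusted p of 0.0398. The groups of each gene did not overlap, as in 19.9% of all tested genes. EPHA5 lost its call without each of the 6 libraries in turn (edgeR adjusted p of 0.0514 to 0.192), and with offsets for GC content and length (0.052). PTK7 lost its call without control library 1, 2 or 3 or STING library 2 (edgeR adjusted p of up to 0.127). TYRO3, a receptor of the same subfamily as AXL, was at 46.6 ± 0.274 and 42.0 ± 3.45 CPM (edgeR adjusted p = 0.279). DDR2, the other collagen receptor of the DDR1 subfamily, named after its values were seen, was at 66.8 ± 1.59 and 68.1 ± 4.26 CPM, with a log2 fold change of 0.03 and an interval of −0.09 to 0.14.

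No ligand of these receptors passed in edgeR, and ligand levels were uneven. Of 28 ligand genes 25 were tested and 0 passed in edgeR, 4 had an unadjusted p under 0.05, DESeq2 called 2 (BTC and FGF2, both higher), and limma-voom and limma on the FPKM called 0. Over all genes 1.49% passed in edgeR, 14.4% had an unadjusted edgeR p under 0.05, and DESeq2 called 7.41%. BTC, an EGFR ligand, was at 15.8 ± 0.748 and 19.4 ± 1.60 CPM (edgeR adjusted p = 0.0977). The FGFR1 ligand FGF2 had means of 65.8 ± 0.867 and 73.4 ± 2.23 CPM (edgeR adjusted p = 0.125). EFNA4, an ephrin that binds EPHA receptors, had means of 10.4 ± 0.0866 and 8.63 ± 1.27 CPM (0.287). In each of these 3 genes, named for the smallest unadjusted p of the list, the groups did not overlap. Of the 25 tested ligands 3 had all STING libraries higher and 3 all lower. Groups that did not overlap were found in 19.9% of all tested genes.

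By level in the controls, EGFR, PDGFRA, AXL, EPHA2 and FGFR1 had a listed ligand above 5 FPKM, and MET and IGF1R did not. Ligands here were named after their values were seen. PDGFRB was placed on neither side. The listed PDGF genes PDGFA, PDGFB and PDGFD were at 3.21, 1.46 and 2.29 FPKM. TGFA, an EGFR ligand, was at 9.87 FPKM, PDGFC, a PDGFRA ligand, at 10.5 FPKM, GAS6, the AXL ligand, at 8.43 FPKM, and EFNA1, an EPHA2 ligand, at 10.0 FPKM. HGF, the MET ligand, was counted 0 times in all 3 controls, under the floor of 3 counts, and 0, 4 and 0 times in the STING libraries. IGF1 was counted 3, 4 and 7 times in the controls and 0 times in each STING library. IGF2 was counted 15, 15 and 4 times in the controls and 14, 27 and 29 times with the STING plasmid. These counts are too low for a comparison of the groups.

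Of 14 tested co-receptors, sheddases and IGF-binding proteins 1 fell, 0 rose and 13 did not pass in edgeR. DESeq2 called 3 (IGF2R, NRP2 and IGFBP2, all lower), limma-voom 1 and limma on the FPKM 0. The shares over all genes were 1.49% in edgeR, 7.41% in DESeq2, 0.632% in limma-voom and 0.0415% in limma on the FPKM. IGF2R, which carries IGF2 to lysosomes and sorts lysosomal enzymes, fell from 843 ± 10.5 to 725 ± 10.4 CPM (SD, n = 3), to 0.86 of the control level with an edgeR adjusted p of 0.0124. Its control libraries were at 854, 842 and 833 CPM and its STING libraries at 728, 714 and 734 CPM. It lost its call without control library 1, 2 or 3 (edgeR adjusted p of up to 0.102). NRP2, a co-receptor for semaphorins and growth factors, had means of 652 ± 24.0 and 574 ± 32.7 CPM (adjusted p = 0.0707 in edgeR and 0.00316 in DESeq2). IGFBP2, a secreted IGF-binding protein, had means of 118 ± 2.73 and 105 ± 6.66 CPM (0.111 and 0.0294).

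Among adaptors, attenuators and cascades no gene passed in edgeR. Of 20 adaptors and proximal effectors 0 passed, 5 had an unadjusted p under 0.05, and DESeq2, limma-voom and limma on the FPKM called 0. The adaptor SHC1 had a log2 fold change of −0.12, CRK one of 0.12 and FRS2, the docking protein of FGF receptors, one of 0.15. Of 20 receptor attenuators 0 passed, 5 had an unadjusted p under 0.05, DESeq2 called 3 (LRIG2, PTPRJ and ERRFI1), and limma-voom and limma on the FPKM called 0. For comparison, 14.4% of all tested genes had an unadjusted edgeR p under 0.05, 1.49% passed, and DESeq2 called 7.41% of its genes. LRIG2 was at 0.21 (edgeR adjusted p = 0.0803), the receptor phosphatase PTPRJ at −0.19 (0.101) and ERRFI1, a feedback inhibitor of EGFR, at −0.15 (0.125).

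In the RAS-ERK cascade 0 of 11 genes passed and 3 reached an unadjusted p under 0.05 in edgeR, DESeq2 called 2 (BRAF higher and MAPK3 lower), and limma-voom and limma on the FPKM called 0. The kinase BRAF had a log2 fold change of 0.21, MAPK3, which encodes ERK1, one of −0.29 and MAP2K2, which encodes MEK2, one of −0.14. In the PI3K-AKT-mTOR cascade 0 of 19 genes passed and 5 reached an unadjusted p under 0.05 in edgeR, DESeq2 called 3 (PDPK1, AKT1 and PHLPP2), and limma-voom and limma on the FPKM called 0. PDPK1, the kinase that activates AKT, had a log2 fold change of 0.17, AKT1 one of −0.17 and the AKT phosphatase PHLPP2 one of 0.16. The estimates within each cascade thus had both signs, and the list medians lay at −0.00385 and −0.02. Across all tested genes 14.4% reached an unadjusted p under 0.05 and 1.49% passed in edgeR, and DESeq2 called 7.41% of its genes.

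Transcripts known to rise when ERK is active were examined as well. Of 14 ERK-responsive genes 0 passed and 1 reached an unadjusted p under 0.05 in edgeR, against 1.49% and 14.4% of all tested genes. DESeq2, limma-voom and limma on the FPKM called 0, against 7.41%, 0.632% and 0.0415% over all genes. The median of the 14 genes was −3.85e-05 on the log2 scale. The transcription factor ETV5 was at 94.8 ± 0.523 and 86.6 ± 3.43 CPM (SD, n = 3, edgeR adjusted p = 0.201). FOSL1, an AP-1 subunit, was at 87.6 ± 3.16 and 81.5 ± 3.23 CPM (0.363), and MYC at 18.8 ± 1.48 and 20.8 ± 0.643 CPM (0.437). Without STING library 1 the attenuator, RAS-ERK and PI3K-AKT-mTOR lists had 2, 3 and 1 called genes, and 3.27% of all tested genes were called.

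**Figure D5:**
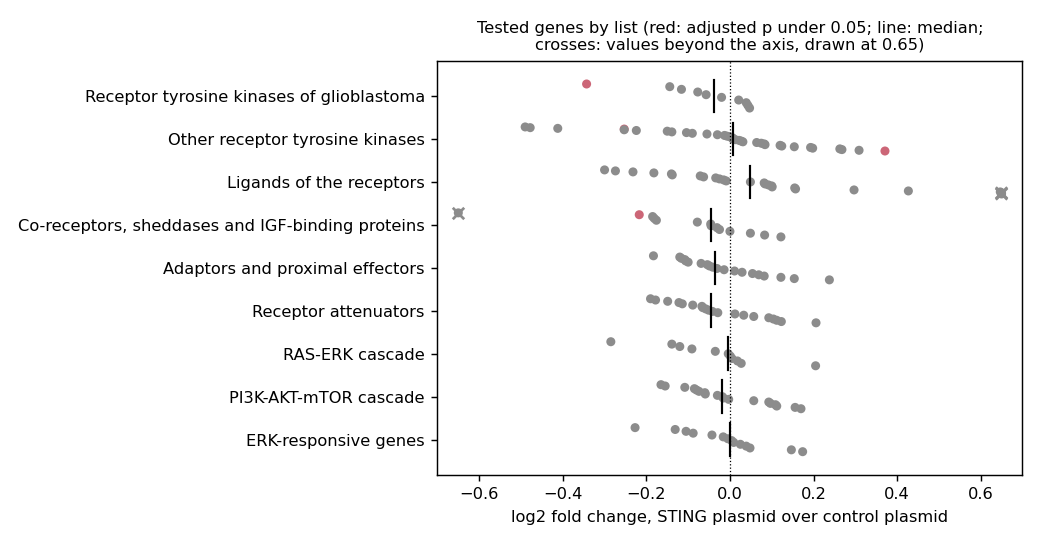
Log2 fold change of every tested gene in the 10 members and the 8 pathway lists, with genes past the threshold in red and list medians as black lines (crosses mark values beyond the axis). DDR1, PTK7, EPHA5 and IGF2R are the red points, and every list median lies between −0.05 and 0.05.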

How the data were processed

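RNA of 6 U251 libraries was extracted with Trizol and made into libraries with the Illumina TruSeq RNA kit from 1 ug of total RNA, per the labels' protocols. Bowtie 0.12.2 is named in the submitters' processing notes. Which program counted the reads, on which annotation, build and strand setting, is not given in the sources used here. The deposited tables hold read counts and FPKM for each Ensembl gene, per the file headers. GENCODE release 29 (GRCh38) held 40903 of the 42307 gene IDs, with a start or end that matched within 1 base for 89.8% of them, and coordinates are those of the files. Replicates differed by more than sampling noise (chi-square per gene 11.8 to 23.1), so none was counted as the same library.

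The test on counts was that of edgeR 4.0.16 under R 4.3.3 (filterByExpr, TMM normalization, a robust quasi-likelihood model, two-sided, Benjamini-Hochberg adjustment over all 21679 tested genes, threshold 0.05). Approximate standard errors (absolute log2 fold change over root F) gave the 95% intervals. Alternatives used DESeq2 1.42.0, limma 3.58.1 (with a pseudocount of 0.1 on FPKM), other scalings and filters, a replicate block, offsets for GC content and length, and leaving out each library. The procedure was also run on simulated data, and its recovery of changes as small as that of DDR1 is not given here. No label ties a replicate number to a culture or day, and the main test had no block.

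The 10 members, the 8 pathway lists (175 genes) and the 7 marker lists (37 genes) were chosen with earlier results of these data known. Named genes were the members, the 3 genes of each pathway list with the smallest unadjusted p, STING1 and the 3 genes most like DDR1 in profile. Clone-based and LINC names were left out of the profile ranking. Other genes named were chosen after their values were seen.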

Additional observations from a re-analysis of the deposited data

How the results depend on the processing

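The number of changed genes was 324, and 686 with the stricter filter (1 CPM in 3 libraries), 120 with the replicate block, 499 with offsets for GC content and length, 108 with block and offsets, 922 in DESeq2, 137 in limma-voom and 9 in limma on log2(FPKM + 0.1). It was 60 to 741 with 1 library left out, highest without STING library 1. Total-count scaling gave 246 higher and 138 lower genes, against 131 and 193, and the stricter filter, DESeq2 and the offsets called 274, 398 and 195 higher and 412, 524 and 304 lower. What libraries of the same replicate number share is not given in the labels. Deviations of same-numbered libraries correlated at 0.0551, 0.0231 and 0.0172, and those of differently numbered libraries at −0.04 to 0.0192. By these values 5 of 6 libraries correlated best with their own number. Whether the numbers mark a shared culture or day cannot be told.

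DDR1 kept its sign under all alternatives. It lost its call with the replicate block and offsets together (log2 fold change −0.276, edgeR adjusted p = 0.0595) and in limma on the FPKM (−0.323, adjusted p = 0.149), where 0 members were called, and the cause was not tested. With the replicate block alone it was called (adjusted p = 0.0323). With 1 library left out it ranged from −0.387 to −0.274 and the number of called members from 0 to 1.

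No uncalled member became called. EGFR turned positive with total-count scaling (0.0106) and in limma on the FPKM (0.000615), and ranged from −0.0458 to 0.00666 with 1 library left out. PDGFRA turned negative with the offsets (−0.0161) and with block and offsets (−0.0131), and ranged from −0.0475 to 0.116. PDGFRB ranged from −0.285 to 0.055. With the offsets ERBB2 was at −0.0566 and EPHA2 at −0.0107, against −0.116 and −0.0771 in the main fit.

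Of the other receptor tyrosine kinases 2 were called, and 0 with the replicate block, block and offsets, limma-voom or limma on the FPKM, 1 with the offsets, and 0 to 1 with 1 library left out. Of the ligands 0 were called, 2 in DESeq2, and 0 to 1 with 1 library left out. Of the co-receptors, sheddases and IGF-binding proteins 1 was called, 2 with no filter or the offsets, 3 with the stricter filter or DESeq2, 0 with the replicate block or limma on the FPKM, and 0 to 2 with 1 library left out. Of the attenuators 0 were called, 1 with total-count scaling or the stricter filter, 2 with the offsets, 3 in DESeq2, and 0 to 2 with 1 library left out. Of the RAS-ERK genes 0 were called, 1 with the stricter filter, 2 in DESeq2, and 0 to 3 with 1 library left out. Of the PI3K-AKT-mTOR genes 0 were called, 1 with total-count scaling, the stricter filter or the offsets, 3 in DESeq2, and 0 to 1 with 1 library left out. The share of all tested genes called moved with the setting too. It was 1.49% in the main fit, 1.77% with total-count scaling, 1.17% with no filter and 4.58% with the stricter filter. With the offsets it was 2.3%, with the replicate block 0.554%, and with block and offsets 0.498%. DESeq2 called 7.41% of its genes, limma-voom 0.632% and limma on the FPKM 0.0415%. With 1 library left out the share ran from 0.266% to 3.27%. Low counts limit the precision for PDGFRB, HGF, IGF1 and IGF2.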
